A study of Mus musculus with 2 samples.

Results

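Brain endothelial cells, which line the blood vessels of the brain, were picked out of 2 single-cell libraries of whole mouse brain at postnatal day 10. The members were chosen by measured values. A barcode was a member if its raw UMIs (unique molecular identifiers, each 1 counted RNA molecule) of Cldn5, Flt1, Pecam1 and Cdh5 summed to at least 4. It could hold at most 2 UMIs of the pericyte genes Kcnj8, Abcc9 and Higd1b and at most 1 UMI of the myeloid genes P2ry12 and Mrc1. It also needed at least 500 genes, at least 1500 UMIs and at most 10% mitochondrial UMIs. This gave 273 members of 32486 barcodes, or of 20741 barcodes within the quality limits. Library 1 held 128 members among 11486 such barcodes, a share of 1.11% (95% exact Clopper-Pearson interval 0.931% to 1.32%). Library 2 held 145 among 9255, a share of 1.57% (1.32% to 1.84%). These intervals cover counting error only.

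Both libraries belong to 1 group of mice, of a strain given as C57BL/J, and no allele, agent or control group is named. The series counts 6 mice without tying any of them to a library. The p-values below weigh a difference between groups of cells against how far such differences varied between 2 libraries. That variation may be technical. The median member of library 1 held 5973 UMIs from 2126 genes, and that of library 2 held 4437 UMIs from 1775 genes. Of the barcode sequences, 90 occurred in both libraries, and 0 of them was a member in both. RNA of another cell type, taken as at least 5 UMIs of its markers (20 for red blood cell markers), was found in 23 members of library 1 and 28 of library 2, most often of neurons (13 and 10), microglia (0 and 11) or red blood cells (2 and 9). Markers of red blood cells, which are haemoglobin genes and Alas2, summed to 2599 and 7435 CPM (UMIs per 1000000 UMIs of the same cells) over all members. Without the members holding other RNA they summed to 2.84 and 155. The same markers helped to choose the members left out, so the fall follows in part from that choice. Between the libraries, 21 of the 1545 genes at 100 CPM or more differed by 2-fold or more, among them collagen and haemoglobin genes.

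Brain endothelial cells form the blood-brain barrier. They are sealed by tight junctions, carry few vesicles and move nutrients with dedicated transporters, a state upheld by Wnt and beta-catenin signalling from the neural tissue. Along the vascular tree the cells differ, with arterial cells marked by gap junction proteins, elastic fibre genes and Notch signalling, capillary cells by transporters and venous cells by adhesion molecules. In the first weeks after birth the network is still growing from sprouts, whose leading tip cells make ligands such as apelin and angiopoietin 2.

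The 4 genes of the rule stood far above their level in other cells, which is how the members were chosen and not a result. Cldn5, the main claudin of brain endothelial tight junctions (mm10, chromosome 16, 18776847 to 18778262, plus strand), had 3784 and 3895 CPM in library 1 and library 2, against 1.43 and 0 in pericytes. Flt1, a VEGF receptor (chromosome 5, 147561604 to 147726011, minus strand), had 551 and 548 in endothelial cells, against 26.2 and 17.1 in pericytes. Cdh5, the VE-cadherin of adherens junctions (chromosome 8), had 337 and 343, and Pecam1, an adhesion molecule of endothelial junctions (chromosome 11), had 276 in both libraries. No value of another class came near those of members. Since these are the genes of the rule they cannot test the label, but the transporters and transcription factors described below, which played no part in it, were high in the same cells. Kcnj8 and Abcc9 were at 0 in members of both libraries. The rule sum had a median of 27.5 UMIs in library 1 and 25 in library 2. At the threshold, 6 members of each library held 4 UMIs, and 6 and 7 barcodes just outside held 3. Members at 4 UMIs had 526 and 344 CPM of Slco1c1, an organic anion transporter, against 261 and 401 in the barcodes at 3, so the values overlapped. Itm2a overlapped as well, at 431 and 602 against 843 and 335. Spock2 (526 and 860, against 145 and 268), Esam (335 and 516, against 0 and 201) and Slc7a5 (383 and 602, against 58.1 and 268) were higher at 4 UMIs in both libraries.

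**Figure D1:**
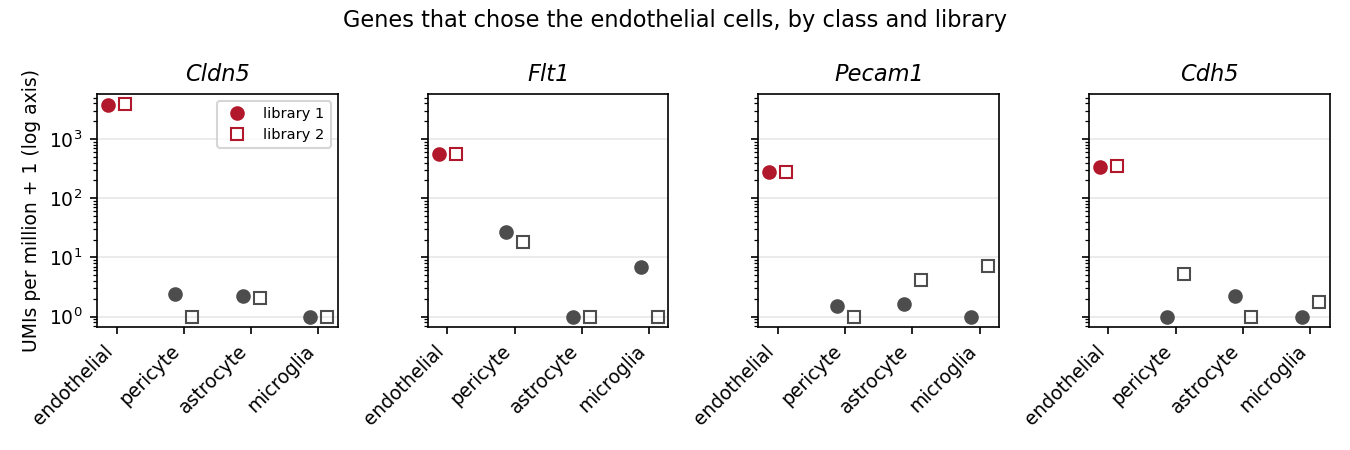
CPM plus 1 (log axis) of the 4 genes that chose the members, for endothelial cells, pericytes, astrocytes and microglia, with 1 point for each library. Endothelial values lie between 276 and 3895 in both libraries, and no value of another class passes 26.2.

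Members were set against 3 classes drawn in the same way from their own genes, and all genes of these rules were left out of the tests. Pericytes, the mural cells that wrap capillaries, numbered 454 and 59 in the 2 libraries, astrocytes 268 and 153, and microglia 38 and 856. A gene was called where the edgeR quasi-likelihood test gave an adjusted p under 0.05, the difference was 1 or more on the log2 scale, and both libraries moved the same way. Of 10442 genes tested, 1099 (10.5%) were higher and 998 (9.56%) lower in endothelial cells than in pericytes. Against astrocytes 1615 (15.5%) were higher and 1847 (17.7%) lower, and against microglia 1515 (14.5%) were higher and 1421 (13.6%) lower. Higher than in all 3 classes were 539 genes (5.16%), and lower than in all 3 were 119 (1.14%). The remaining genes still vary with those that drew the classes, so these tests describe the classes as drawn. Among the 539 were the haemoglobin genes Hba-a1 and Hbb-bs, and most haemoglobin UMIs came from members holding RNA of other cell types. Haemoglobin genes were among the markers that chose such members, so this follows in part from that choice. Without such members, a setting chosen after seeing the data, 2441 genes were called against pericytes, 3640 against astrocytes and 3110 against microglia.

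Transporters of the blood-brain barrier moved almost as a block: 26 of 27 tested members of a 29-gene list were higher than in pericytes, with a median log2 fold change of 5.29 beside -0.01 over all genes tested. Of these 27, 24 were higher than in all 3 classes, where 5.16% of all genes were. Slc2a1, the glucose transporter GLUT1, had 418 and 445 CPM in endothelial cells, against 6.68 and 12.8 in pericytes (log2 fold change 6.07 ± 0.31 SE, edgeR adjusted p = 1.8e-12). Mfsd2a, which carries lysophosphatidylcholine bound to omega-3 fatty acids and holds down vesicle transport, had 638 and 588 against 3.34 and 4.28 (7.67 ± 0.34, edgeR adjusted p = 2.35e-13). In both libraries the endothelial values of these genes lay far above those of pericytes. Tfrc, the transferrin receptor, had 875 and 867 against 37.7 and 29.9, and Slco1c1, which also carries thyroid hormone, had 847 and 949 against 2.86 and 4.28. Abcb1a, the drug efflux pump P-glycoprotein, had 108 and 150 and was at 0 in astrocytes of both libraries, so it was at least 109-fold higher there by a floor of 3 UMIs over both libraries. Slc22a8, an organic anion transporter, gave the smallest called rise of the list, with 288 and 296 against 76.8 and 89.8 in pericytes. The exception was Slc30a10, an efflux transporter of manganese, which was lower in endothelial cells at 3.34 and 1.24 CPM, against 120 and 154 in pericytes and 65.8 and 46.7 in astrocytes.

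Transcription factors of the endothelial lineage followed. Of 28 tested, 21 were higher than in pericytes and 0 lower, with a median log2 fold change of 3.91, and 16 were higher than in all 3 classes. Sox18, an F-group SOX factor of vessel growth, had 327 and 311 CPM and was at 0 in pericytes and in astrocytes of both libraries, at least 248-fold and at least 268-fold higher by the same floor. Its relative Sox17, which acts in arterial fate, had 162 and 170 and was also at 0 in pericytes, at least 129-fold higher. Erg, an ETS factor that maintains endothelial identity, had 70.1 and 67.1 against 0 in both pericyte libraries. At the other end of the called members stood Nfib, with 284 and 271 against 190 and 103 (log2 fold change 1.09 ± 0.24, edgeR adjusted p = 0.00165).

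Of the junction and adhesion genes, 10 of 18 were higher than in pericytes, 2 were lower and 6 were not called, with a median of 1.88. Over all genes tested 10.5% were higher and 9.56% lower, so the lower count was near that share. The same shares apply to the counts against pericytes in the lists that follow. Lsr, the angulin of tricellular junctions, had 119 and 134 CPM, and Podxl, a sialomucin of the luminal surface, had 124 and 132, with both at 0 in pericytes. Esam, an adhesion molecule of endothelial junctions, had 827 and 855 against 267 and 291. Tjp1, the scaffold protein ZO-1, was higher than in astrocytes at 284 and 291 against 51.8 and 44.5, but it was not called against pericytes, which had 250 and 261. Jam3, a junctional adhesion molecule, was lower in endothelial cells at 11.1 and 8.70 against 54.8 and 89.8. Of the caveolae and fenestrae list, 4 of 8 were higher than in pericytes and 0 lower. Cav1, the coat protein of caveolae, had 171 and 216 CPM against 0.954 and 0. Plvap, a protein of fenestrated and immature leaky endothelium, had 0 UMIs in library 1 and was found in 2 cells of library 2.

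In the VEGF and angiopoietin list, 12 of 16 were higher than in pericytes and 2 lower, with a median log2 fold change of 3.71. Both receptors and ligands were among the higher genes. Kdr, the main signalling receptor for VEGF, had 332 and 389 CPM against 2.86 and 4.28 (7.0 ± 0.38, edgeR adjusted p = 4.28e-12). Tek and Tie1, the TIE2 and TIE1 receptors of the angiopoietin system, had 84.6 and 114 against 5.72 and 17.1, and 188 and 198 against 18.6 and 12.8. The ligands Apln, Vegfc, Angpt2 and Angptl4 were higher too, with Apln at 255 and 278 against 0.477 and 0. The ligands Angpt1 and Pgf were lower in endothelial cells: Angpt1, which activates TIE2, had 1.11 and 1.24 against 29.1 and 21.4 in pericytes. For Angpt1 and Tek the ligand thus stood higher in the pericytes and the receptor higher in the endothelial cells, at the level of RNA.

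Of the Wnt and beta-catenin list, 10 of 22 were higher than in pericytes and 2 lower, with a median of 1.04. Over all genes tested 10.5% were higher and 9.56% lower, so the lower count was near that share. The same number of the list, 10, were higher than in all 3 classes. Apcdd1, a Wnt target that also restrains the pathway, had 457 and 461 CPM against 75.4 and 98.4 in pericytes (2.70 ± 0.23, edgeR adjusted p = 5.68e-09). Lef1, a nuclear partner of beta-catenin, had 99.1 and 94.4 against 21.9 and 17.1. Foxq1, a transcription factor of barrier endothelium, had 270 and 297 against 93.5 and 98.4. Fzd4, the receptor for the ligand norrin, was low in both classes but called, at 30 and 18.6 against 6.68 and 8.56. Axin2, a general Wnt target, went the other way with 20 and 22.4 in endothelial cells against 79.7 and 116 in pericytes (-1.95 ± 0.31, edgeR adjusted p = 3.83e-05), as did Dkk2, a secreted Wnt modulator. The list thus did not rise as a block.

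Of the Notch genes, 8 of 16 were higher than in pericytes and 3 lower. The ligands Jag2 (72.3 and 103 CPM, against 1.43 and 0) and Dll4 (94.6 and 55.9, against 7.63 and 12.8) were among those higher in endothelial cells. The mural receptor Notch3 (2.23 and 1.24, against 315 and 355) and the target Heyl (0 in both, against 167 and 180) were among the lower. Of the BMP and TGF-beta list, 10 of 15 were higher and 2 lower. Id1, a target of BMP signalling, had 223 and 263 against 36.7 and 29.9.

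For the basement membrane, the sheet shared by endothelial cells and pericytes, 6 of 18 genes were higher and 7 lower, with a median log2 fold change of -0.22. The chains of type IV collagen, Col4a1 and Col4a2, were lower than in pericytes, at 413 and 484 against 1763 and 2028 for Col4a1 (-1.88 ± 0.21, edgeR adjusted p = 2.16e-07) and 469 and 560 against 1138 and 1254 for Col4a2. Against astrocytes, however, 16 of the same 18 genes were higher and 0 lower. Lama5, a laminin chain of mature vessels, was among those higher than in pericytes, at 20 and 34.8 against 0.954 and 0. In the G2 and M phase list, 8 of 20 genes were lower than in pericytes and 0 higher, and 2 were lower than in all 3 classes. After each cell was thinned to 1500 UMIs, 9 of 128 members of library 1 (7.03%, 95% exact interval 3.27% to 12.9%) and 11 of 145 of library 2 (7.59%, 3.85% to 13.2%) held UMIs of at least 3 of these genes. Without thinning the shares were 15.6% and 13.1%. In pericytes the thinned shares were 14.8% in library 1 and 5.08% in library 2. The 20 genes summed to 585 and 647 CPM in members, against 1651 and 706 in pericytes, so the difference was far smaller in library 2. Immediate early genes, which dissociation can induce, gave 10 of 19 higher than in pericytes. Against microglia 12 of the 19 were lower and 2 higher, where 13.6% of all genes were lower and 14.5% higher.

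**Figure D2:**
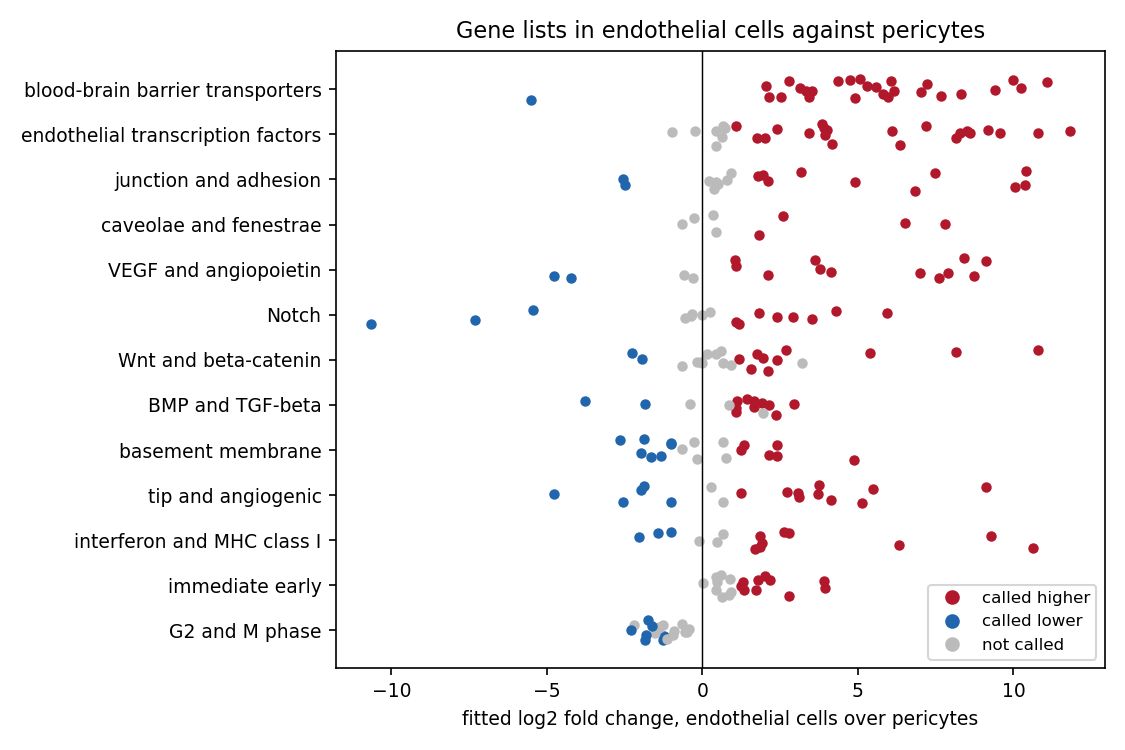
Fitted log2 fold changes of endothelial cells over pericytes, with 1 point for each tested gene of a list, red where called higher, blue where called lower and grey where not called. Transporters and transcription factors lie mostly to the right of 0 (26 of 27 and 21 of 28 called higher), while basement membrane genes lie on both sides (6 higher, 7 lower).

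Among the genes with the largest folds against pericytes were Prnd, which encodes the prion-like protein doppel, with 230 and 189 CPM, and Ly6a with 141 and 166, both at 0 in pericytes. Ctla2a had 2465 and 2206 against 0.954 and 0, and Pglyrp1, a peptidoglycan recognition protein, had 1399 and 1352 against 0.954 and 0. In the other direction, Cox4i2 had 0 in both endothelial libraries, against 754 and 916 in pericytes, at least 474-fold lower. Rgs5 and Vtn, textbook pericyte genes, had 2.23 and 1.24 against 7898 and 9002, and 1.11 and 1.24 against 4093 and 4860. All 8 genes of the pericyte marker list were lower, and in neither library did any of them reach 10 CPM in members. Against astrocytes, Car4, a carbonic anhydrase of brain capillaries, had 532 and 569 and was at 0 in astrocytes of both libraries (at least 463-fold higher), and Cd34, a sialomucin of endothelial and blood stem cells, had 453 and 486 against 0 in both. Gfap, the astrocyte filament gene, had 7.79 and 0 against 1633 and 855. Against microglia, Vwa1, a matrix protein, had 717 and 742 and Egfl8 had 200 and 237, both at 0 in microglia. Ptprc, the CD45 antigen of blood-derived cells, was at 0 in members of both libraries, against 149 and 129 in microglia.

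To follow the vascular tree inside the group, each member was given the zone whose marker list was most over-represented among its UMIs, with at least 2 UMIs of that list. The lists were Gkn3, Bmx, Sema3g, Mgp, Gja5, Efnb2, Stmn2 and Vegfc for arteries, Mfsd2a, Spock2, Rgcc, Hmcn1 and Ivns1abp for capillaries, and Nr2f2, Ackr1, Lcn2, Lrg1, Vwf, Il1r1 and Vcam1 for veins. In library 1, 16 cells were arterial-assigned (12.5%), 35 venous-assigned (27.3%) and 68 capillary-assigned (53.1%), and 9 stayed unassigned. In library 2 these were 23 (15.9%), 41 (28.3%) and 78 (53.8%), and 3 stayed unassigned. The zone lists overlap in single cells, and 33 cells of library 1 and 30 of library 2 had a second zone within 1.5 times of the first.

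The arterial-assigned group was mixed. Stmn2 is also a neuronal gene and Mgp a fibroblast gene, and 9 of the 16 cells in library 1 and 10 of the 23 in library 2 were placed by these 2 genes without a UMI of the other arterial genes. RNA of another cell type was found in 12 and 11 of them. The 9 neuron markers summed to 1435 and 1171 CPM in arterial-assigned cells, against 189 and 148 in capillary-assigned cells, and all 6 that were tested were called higher. Fibroblast markers summed to 3811 in arterial-assigned cells of library 1 and to 0 in those of library 2, and to 4.14 and 12.1 in capillary-assigned cells. Each zone comparison was therefore also run with stricter zones, an alternative added after these values were seen. For many genes below, only the values of all members are printed. In the stricter zones Stmn2 and Mgp were not used and members with RNA of other cell types were left out. These held 7 and 13 arterial, 29 and 35 venous and 61 and 66 capillary cells, and a limit of 10 cells per zone was dropped for them. In stricter arterial cells the neuron markers summed to 77.5 and 42.9, against 79.0 and 95.3 in stricter capillary cells, and fibroblast markers were at 0 in both libraries. Smooth muscle markers summed to 77.5 and 28.6 in stricter arterial cells against 7.41 and 8.66 in stricter capillary cells, although the 3 smooth muscle genes of the class rule were at 0 in stricter arterial cells. Astrocyte markers summed to 279 and 143 against 86.4 and 124. Members were left out by some of these same neuron, fibroblast and astrocyte markers. Low sums of these 3 lists in stricter zones thus follow in part from that choice. The 7 markers of choroid plexus endothelium summed to 687 and 664 in arterial-assigned cells against 126 and 116 in capillary-assigned cells, and to 512 and 958 against 111 and 86.6 in stricter zones. Of these, 3 of 4 tested (Igfbp3, Cd24a and Plpp3) were called higher with all members and 2 of 2 (Igfbp3 and Plpp1) in stricter zones. The part of these markers in the results was not tested.

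Arterial-assigned cells differed from capillary-assigned cells in 207 of 4239 genes tested, 120 higher (2.83%) and 87 lower (2.05%). With stricter zones 230 of 3434 differed, 136 higher (3.96%) and 94 lower (2.74%). Called in both versions were 46 higher genes (1.36%), which were 38.3% of the first list and 33.8% of the second, and 46 lower genes (1.36%), 52.9% and 48.9%. The genes below were called in both unless stated. With DESeq2's Wald test the first count was 85, of which 60 were higher and 25 lower.

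Of the arterial genes that had played no part in the assignment, some were called higher and 0 lower. Of 25 such genes in a list, 19 were tested, 10 were called higher and 9 were not called, with a median log2 fold change of 1.44 beside -0.01 over all genes. With stricter zones 13 of 17 were higher and 0 lower, and 8 were called in both versions. Gja4, the gap junction protein connexin 37 (chromosome 4, 127311421 to 127314039, minus strand), had 411 and 539 CPM in arterial-assigned cells, against 60.1 and 96.8 in capillary-assigned cells (2.54 ± 0.29 SE, edgeR adjusted p = 0.000218). In stricter zones it had 1086 and 1058 against 64.2 and 54.8 (4.06 ± 0.23, edgeR adjusted p = 3.3e-10). Pericytes also carried Gja4, at 243 and 231. In stricter arterial cells the 8 pericyte markers were at 0 in both libraries, and the 3 pericyte genes of the rule summed to 15.5 and 0 CPM, against 0 in stricter capillary cells of both. Their part in the result was not tested. Fbln5, an elastic fibre protein (chromosome 12, 101746565 to 101819055, minus strand), had 291 and 656 against 8.29 and 4.84, and 651 and 1201 against 9.88 and 5.77 in stricter zones (6.63 ± 0.40, edgeR adjusted p = 6.9e-10). Tm4sf1, a membrane protein of endothelial protrusions (chromosome 3), had 650 and 1007 against 124 and 114, and 1752 and 1758 against 138 and 77.9. For these genes the libraries of the 2 zones did not overlap in either version. Fbln2, a further fibulin, had 194 and 250 against 8.29 and 14.5, and Unc5b, a netrin receptor of arterial cells, had 120 and 125 against 22.8 and 24.2. Glul, glutamine synthetase, had 418 and 632 against 218 and 208.

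Some list members were called in stricter zones alone. Egfl8 had 306 and 742 against 155 and 184 (edgeR adjusted p = 0.0633), and 1148 and 1430 against 173 and 133 in stricter zones (2.98 ± 0.21, edgeR adjusted p = 5.21e-09). The Notch ligand Jag2 and Sox17 were likewise called in stricter zones alone, with Sox17 at 543 and 529 against 156 and 147 there. Cxcl12, a chemokine of vessels that stood in the capillary list (chromosome 6, 117168535 to 117181367, plus strand), had 1905 and 2093 against 599 and 963 (1.26 ± 0.41, edgeR adjusted p = 0.0993). In stricter zones it had 3954 and 3216 against 684 and 675 (2.30 ± 0.16, edgeR adjusted p = 3.68e-09), so the arterial libraries were the higher ones in both versions. Stmn2, not used for the stricter assignment, still had 403 and 229 CPM in stricter arterial cells, against 9.88 and 11.5 in stricter capillary cells, and is given without a test.

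Other genes higher in arterial cells lay outside the arterial list. The interferon and MHC class I list gave 4 of 10 higher and 0 lower, and all 4 were called in both versions. Ifitm3, an interferon-induced membrane protein, had 904 and 2194 CPM in arterial-assigned cells against 282 and 249 in capillary-assigned cells (2.38 ± 0.29, edgeR adjusted p = 0.000338). Ly6a had 299 and 406 against 108 and 119. Slc6a6, the taurine transporter, was the barrier transporter called higher in both versions, at 590 and 1202 against 222 and 518. It also differed between the libraries as a whole, at 239 in members of library 1 and 550 in those of library 2, and in each library the arterial value was the higher. Col18a1, the basement membrane collagen that yields endostatin, had 366 and 367 against 74.6 and 77.4. Tmem100, a target of BMP signalling in arteries, had 172 and 203 against 0 and 14.5, and Igfbp3, which also stood in the choroid plexus list, had 74.7 and 297 against 14.5 and 19.4. Fstl1, a secreted glycoprotein, had 927 and 172 against 10.4 and 9.68 with all members, and 155 and 272 against 9.88 and 8.66 in stricter zones, so library 1 was the higher arterial value with all members and the lower one in stricter zones. In the caveolae list, Ehd2 and Cavin3 were the 2 of 6 called higher with all members, and 5 of 6 were in stricter zones.

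Several nutrient transporters were lower in arterial cells. Of 22 barrier transporters tested, 10 were lower in arterial-assigned than in capillary-assigned cells, 1 was higher and 11 were not called, with a median log2 fold change of -0.91. Over all genes 2.05% were lower. In stricter zones 7 of 21 were lower, 3 were higher and 11 were not called, with a median of -0.53, and the 7 lower genes were called in both versions. The 4 rule genes also summed lower in arterial-assigned cells, at 3153 and 4802 CPM against 5413 and 5186 in capillary-assigned cells. In stricter zones they summed higher, at 7025 and 6833 against 5562 and 5193. The part of RNA of other cell types in the count with all members was not tested. Slc38a5, a glutamine transporter (chromosome X, 8271133 to 8280179, plus strand), had 164 in both libraries of arterial-assigned cells, against 698 and 716 in capillary-assigned cells (-2.17 ± 0.23, edgeR adjusted p = 0.000125). In stricter zones it had 62.0 and 57.2 against 756 and 808. Slc7a5, the large neutral amino acid transporter LAT1, had 366 and 500 against 1214 and 1224 (-1.56 ± 0.18, edgeR adjusted p = 0.000214), and its partner Slc3a2 had 366 and 554 against 955 and 934. Tfrc had 336 and 578 against 1103 and 1050, and Slc40a1, the iron exporter ferroportin, had 202 and 258 against 539 and 486. The arterial values of these genes lay below the capillary ones in both libraries. Slc39a8, a zinc and manganese importer, and Slc1a4, a neutral amino acid transporter, completed the 7. Slc22a8 was lower with all members, at 105 and 133 against 303 and 353, and not called in stricter zones (edgeR adjusted p = 0.0628). Slc2a1 and Abcb1a did not follow this pattern. Slc2a1 had 404 and 578 against 427 and 455 (0.08 ± 0.22, edgeR adjusted p = 0.9), and 1039 and 886 against 457 and 442 in stricter zones (1.0 ± 0.18, edgeR adjusted p = 0.000846). Abcb1a likewise was called higher in stricter zones alone, at 233 and 415 against 143 and 144.

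**Figure D3:**
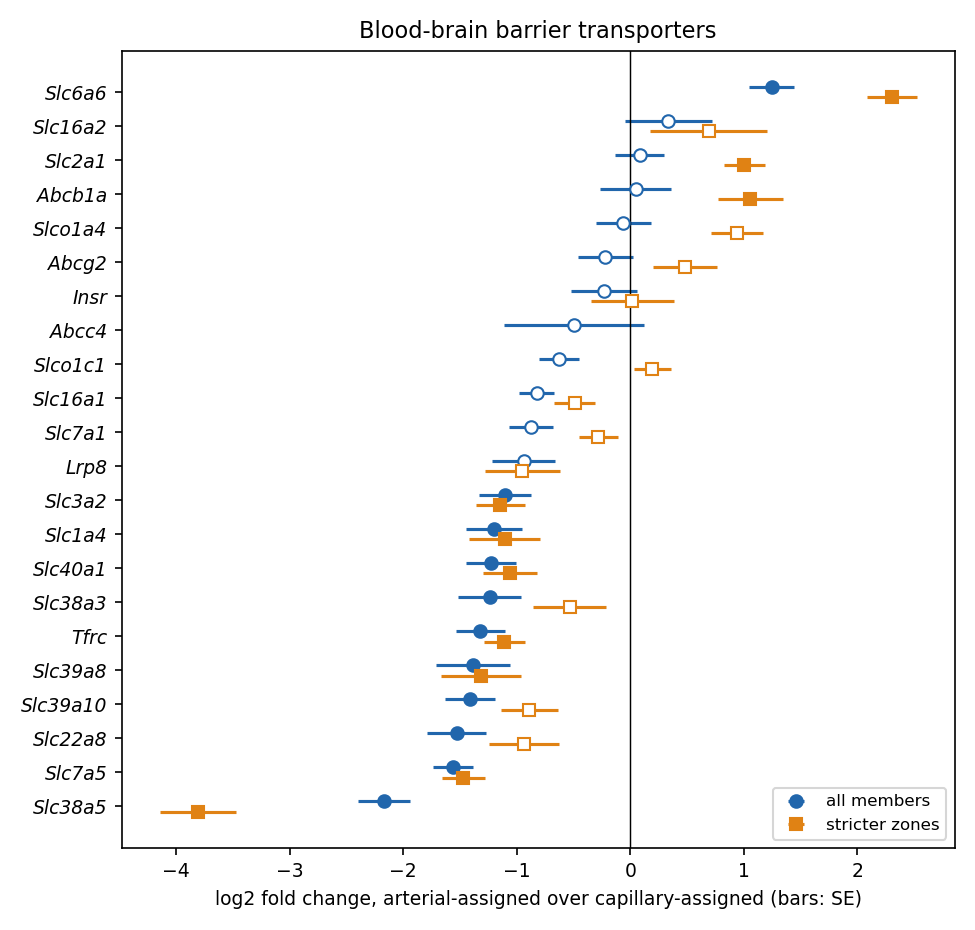
Log2 fold change of arterial-assigned over capillary-assigned cells for the 22 tested barrier transporters, with bars for the standard error of the edgeR fit. Blue circles are all members, orange squares the stricter zones, and filled symbols are called. Slc6a6 is called higher and Slc38a5 lies lowest in both versions, at -2.17 with all members.

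Outside the list of barrier transporters, Car4 (chromosome 11, 84957786 to 84966044, plus strand) had 89.7 and 172 CPM in arterial-assigned cells against 620 and 668 in capillary-assigned cells (-2.38 ± 0.25, edgeR adjusted p = 0.000125). It was at 0 in stricter arterial cells of both libraries, against 603 and 782 in stricter capillary cells. Of 12 capillary-list genes not used for assignment and tested in both versions, 4 were lower in both (Slc7a5, Car4, Tfrc and Slc3a2) and 0 higher in both. Cxcl12 and Abcb1a of that list were called higher in stricter zones alone. The list summed to 6374 and 8526 CPM in arterial-assigned cells, against 9419 and 10483 in capillary-assigned cells. In stricter zones it had 11584 and 11608 against 9884 and 10369, so as a sum it was not lower there. Slc16a4, a monocarboxylate transporter family member, had 22.4 and 23.4 against 166 and 162, Slc29a1, a nucleoside transporter, had 22.4 and 54.7 against 176 and 155, and Apod, a lipocalin, had 44.8 and 102 against 375 and 281. The apelin pair was low in arterial cells. Apln, the ligand (chromosome X, 48025146 to 48034853, minus strand), had 59.8 and 78.1 against 245 and 186 (-1.71 ± 0.32, edgeR adjusted p = 0.00661), and its receptor Aplnr had 22.4 and 78.1 against 180 and 235. Apcdd1 had 217 and 289 against 551 and 566, and the Notch target Hes1 had 448 and 320 against 1152 and 750. Of the Notch list, 0 of 12 were called higher and 1 lower with all members (median 0.40), and 4 of 9 higher (Notch4, Jag2, Notch1 and Jag1) and 1 lower in stricter zones (median 0.94). Of the 14 Wnt genes tested, Apcdd1 was called lower in both versions and 0 were called higher in both.

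The sequences upstream of 6 of these genes are shown because the genes moved together, 3 higher and 3 lower in arterial cells. Each run is the 250 bases before the gene's start in RefSeq on GRCm38.p6 (mm10), read 5′ to 3′ on the gene's strand. RefSeq's start can differ from that of the gene positions given above. Capitals mark AGGAA, a form of the ETS core GGAA, or its reverse complement TTCCT. Other forms of the core occur in some of these windows and are not marked. The genes higher in arterial cells, although Cxcl12 was called in stricter zones alone, lie at chr4:127314040-127314289 (minus), chr3:57301989-57302238 (minus) and chr6:117168285-117168534 (plus).
Gja4: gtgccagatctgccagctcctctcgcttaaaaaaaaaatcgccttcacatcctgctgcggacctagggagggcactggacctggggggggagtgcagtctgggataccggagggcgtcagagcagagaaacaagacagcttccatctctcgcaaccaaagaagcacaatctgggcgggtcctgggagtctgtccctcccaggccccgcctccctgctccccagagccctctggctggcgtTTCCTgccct
Tm4sf1: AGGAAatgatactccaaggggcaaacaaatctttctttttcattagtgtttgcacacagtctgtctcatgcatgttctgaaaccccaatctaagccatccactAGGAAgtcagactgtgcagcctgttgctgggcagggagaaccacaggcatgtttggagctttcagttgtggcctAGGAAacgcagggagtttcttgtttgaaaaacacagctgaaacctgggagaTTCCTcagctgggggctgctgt
Cxcl12: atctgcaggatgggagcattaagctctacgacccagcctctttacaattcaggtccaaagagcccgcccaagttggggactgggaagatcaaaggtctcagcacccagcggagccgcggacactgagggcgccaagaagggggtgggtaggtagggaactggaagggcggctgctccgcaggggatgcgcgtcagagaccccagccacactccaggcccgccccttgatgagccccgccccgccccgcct
The genes lower in arterial cells lie at chrX:8271131-8271380 (plus), chr11:84957504-84957753 (plus) and chrX:48034854-48035103 (minus).
Slc38a5: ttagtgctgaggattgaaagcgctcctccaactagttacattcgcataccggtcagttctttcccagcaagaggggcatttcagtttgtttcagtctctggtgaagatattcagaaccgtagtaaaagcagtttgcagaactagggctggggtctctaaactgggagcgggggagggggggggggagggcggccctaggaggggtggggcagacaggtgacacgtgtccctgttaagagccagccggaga
Car4: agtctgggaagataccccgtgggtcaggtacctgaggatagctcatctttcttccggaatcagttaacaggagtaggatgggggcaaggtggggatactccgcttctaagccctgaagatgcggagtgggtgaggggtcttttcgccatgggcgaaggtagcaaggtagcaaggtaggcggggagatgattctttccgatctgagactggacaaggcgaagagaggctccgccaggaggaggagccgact
Apln: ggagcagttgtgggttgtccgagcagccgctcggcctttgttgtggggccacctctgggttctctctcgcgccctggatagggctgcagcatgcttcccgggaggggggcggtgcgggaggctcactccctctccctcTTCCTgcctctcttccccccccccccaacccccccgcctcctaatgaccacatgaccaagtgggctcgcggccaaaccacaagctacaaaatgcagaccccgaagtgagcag
Other forms of the ETS core were not counted. AGGAA, on either strand, occurred 1 time before Gja4, 4 times before Tm4sf1, 1 time before Apln and 0 times before the others. It is a common string: 60.3% of 32851 such windows held it on either strand. Among the genes called in both versions it was in 25 of 48 windows of the higher genes (52.1%, 34 of 46 genes matched) and 29 of 46 windows of the lower genes (63%, 30 of 46 genes matched), near the share over all windows. For the 539 genes higher than in all 3 classes it was in 58.7% of 567 windows. The TCF and LEF core CTTTGA or TCAAAG, whose ends can overlap AGGAA or TTCCT, was in 10.9% of those windows and in 13.8% of all.

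Venous-assigned cells hardly stood apart from capillary-assigned cells. Of 4239 genes, 3 were higher (0.0708%) and 2 lower (0.0472%), and 232 had an unadjusted p under 0.05. The higher genes were Tspan7, Clu and Apoe. All 3 stood far higher in astrocytes than in members, Apoe at 23277 and 18542 CPM in astrocytes. Apoe, an apolipoprotein, had 2348 and 1406 CPM in venous-assigned cells against 725 and 721 in capillary-assigned cells, but 461 and 453 against 669 and 551 in stricter zones, where it was not called and the direction turned. Astrocyte markers summed to 759 and 188 in venous-assigned cells, against 155 and 150 in capillary-assigned cells, and to 106 and 77.2 against 86.4 and 124 in stricter zones. Some of these markers were used to leave members out of the stricter zones, so the lower sums there follow in part from that. The lower genes were the cell cycle genes Ube2c (7.71 and 0, against 60.1 and 91.9) and Hist1h2ap (11.6 and 3.91, against 87.0 and 116), and these 2 (0.059%) were also called in stricter zones. Without the library as a block 3 genes were called, with DESeq2's Wald test 1, and without doublets 0.

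Stricter zones called 10 of 3434 genes between venous and capillary cells, 2 higher (0.0582%) and 8 lower (0.233%). The higher were Adm, the vasoactive peptide adrenomedullin of tip cells, at 300 and 134 against 51.9 and 89.5 (1.65 ± 0.34, edgeR adjusted p = 0.0408), and Trp53i11, at 268 and 216 against 116 and 107. Cxcl12 was lower, at 295 and 129 against 684 and 675 (edgeR adjusted p = 0.000523), and the others were Ube2c, Hist1h2ap, Hist1h2ae, Hmgb2, Pclaf, Cks2 and Tuba1b, which encode histones, a chromatin protein, cell cycle proteins and a tubulin. No list gene of veins was called in either version. Apln had 397 and 535 in venous-assigned cells against 245 and 186 in capillary-assigned cells (1.11 ± 0.21, edgeR adjusted p = 0.0801), and Angpt2, the TIE2 antagonist of sprouting vessels (chromosome 8), had 84.8 and 97.7 against 37.3 and 9.68 (1.93 ± 0.45, edgeR adjusted p = 0.161). Both were higher in venous-assigned cells of both libraries, without passing the test. Of the genes used for the venous assignment, Vwf, von Willebrand factor, had 509 and 504 in venous-assigned cells against 166 and 140 in capillary-assigned cells, as a description with no test, and Ackr1, a chemokine receptor of venules, was at 0 in library 1 and in 1 cell of library 2. The 7 assignment genes summed to 671 and 637 CPM in venous-assigned cells, so most of these UMIs were of Vwf. A Vwf UMI was found in 65.6% of all members of library 1 and 56.6% of library 2.

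Arterial-assigned and venous-assigned cells differed in 236 of 4239 genes, 132 higher (3.11%) and 104 lower (2.45%). Stricter zones gave 243 of 3434, 136 higher (3.96%) and 107 lower (3.12%). Of these, 40 higher (1.18%) and 57 lower genes (1.68%) were called in both versions. The venous assignment list itself summed to 284 and 429 CPM in arterial-assigned cells, against 671 and 637 in venous-assigned cells. In stricter zones it had 775 and 586 against 623 and 700, so there it did not set the venous cells apart. Of 16 tip cell and angiogenic genes, 5 were lower in arterial cells and 0 higher, and the 5 were called in both versions, while Igfbp3, Col4a1 and Col4a2 were called higher in stricter zones alone. Apln had 59.8 and 78.1 in arterial-assigned cells, against 397 and 535 in venous-assigned cells (-2.83 ± 0.30, edgeR adjusted p = 0.000164). Angpt2 had 7.47 and 7.81, from 2 UMIs in all, against 84.8 and 97.7 (edgeR adjusted p = 0.0182), and was at 0 in stricter arterial cells of both libraries. Plxnd1, a semaphorin receptor that guides sprouts, had 52.3 and 62.5 against 243 and 215, Adm had 59.8 and 31.2 against 258 and 109, and Trp53i11 had 74.7 and 46.8 against 231 and 195. Of 9 genes of the venous list, Aplnr, Slc38a5 and Tmsb10 were lower in arterial cells and 0 were higher with all members (Tek was higher in stricter zones). Aplnr and Slc38a5 were also called lower in arterial than in capillary cells in both versions. None of these genes was called between venous and capillary cells in either version, so they did not mark the venous-assigned cells. Tmsb10, thymosin beta 10, a regulator of actin, had 9602 and 9674 in arterial-assigned cells against 20506 and 21280.3 in venous-assigned cells (-1.19 ± 0.04, edgeR adjusted p = 2.95e-09). In stricter zones it had 5955 and 6033 against 23044 and 20768. Gja4 was higher, at 411 and 539 against 84.8 and 39.1, and Cxcl12 was called in both versions here, at 1905 and 2093 against 413 and 97.7 (2.96 ± 0.45, edgeR adjusted p = 0.00159). The Notch target Nrarp was lower, at 37.4 and 78.1 against 200.5 and 199.

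**Figure D4:**
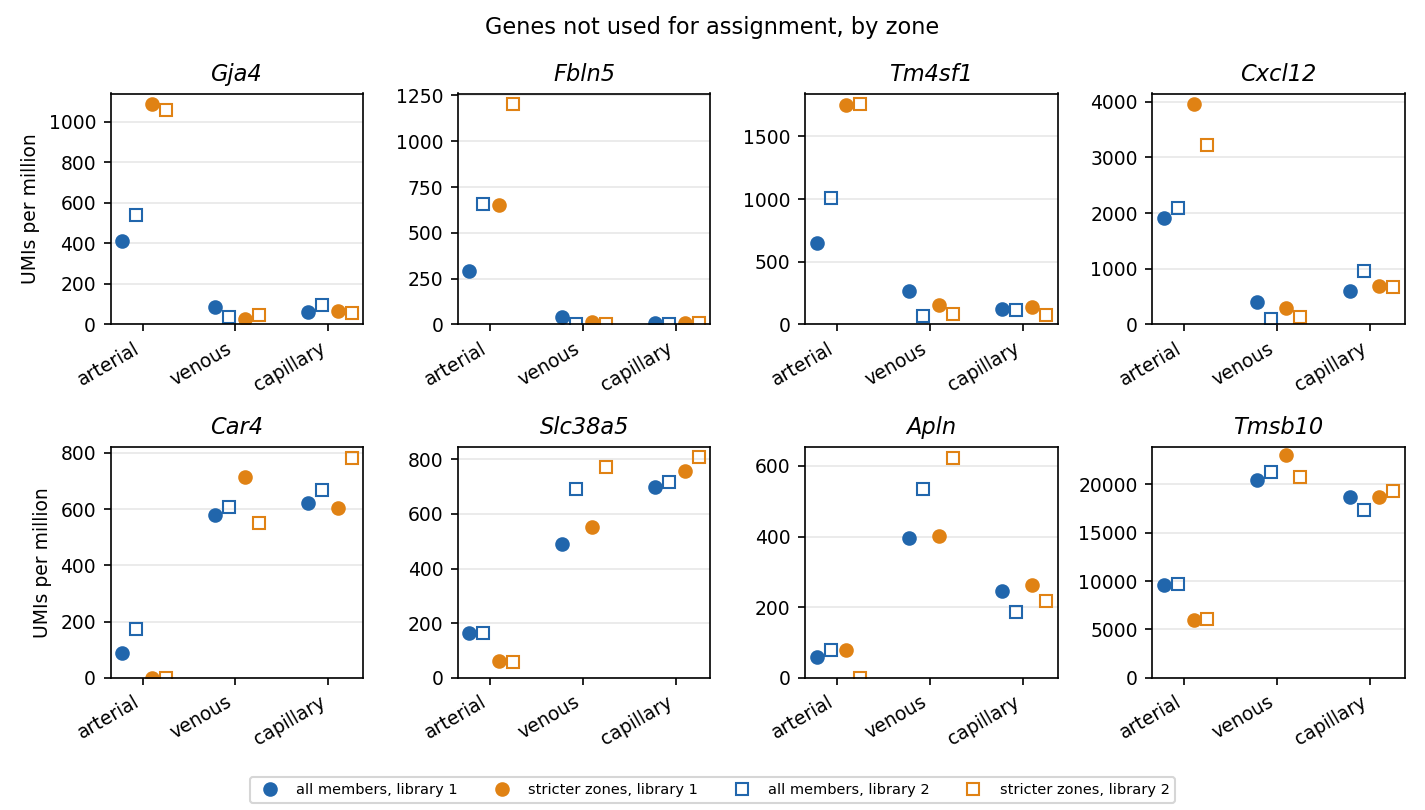
CPM in arterial-assigned, venous-assigned and capillary-assigned cells for 8 genes not used in the assignment, with 1 point for each library, blue for all members and orange for the stricter zones. Gja4, Fbln5, Tm4sf1 and Cxcl12 are highest in arterial cells and Car4, Slc38a5, Apln and Tmsb10 lowest there, in both libraries and both versions.

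The apelin ligand marked a sizeable share of the members. At least 1 Apln UMI was found in 58 of 128 members of library 1 (45.3%, 95% exact interval 36.5% to 54.3%) and in 61 of 145 of library 2 (42.1%, 33.9% to 50.5%). Among astrocytes, which should lack the gene, 0.746% and 0.654% held an Apln UMI. After thinning to 1500 UMIs the shares were 29.7% and 19.3% in members, against 0 of 268 and 0 of 153 astrocytes. Of the Apln-positive cells in library 1, 4 were arterial-assigned, 17 venous-assigned and 37 capillary-assigned, and in library 2 the numbers were 5, 27 and 29. Angpt2 was found in 20 members of library 1 and 11 of library 2, of which 17 and 9 also held Apln. Esm1, endocan, another tip cell gene, was found in 3 and 1 members. The receptor Aplnr was found in 52 members of library 1 (40.6%) and 75 of library 2 (51.7%), and together with Apln in 35 and 38. Whether the 2 genes shared cells more often than their separate shares would give was not tested.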

How the data were processed

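The 2 10x Chromium 3′ libraries were analysed as the raw UMI counts per gene and barcode that the authors deposited. Cell Ranger 6.1.2 and mm10 are named per the submitters' processing notes; the gene annotation release is not given in the sources used here. Counts of all 32285 features were kept, and members were drawn by the rule in the report. Pericytes, astrocytes and microglia were drawn in the same way, each with at least 4 UMIs of its own 3 rule genes, at most 1 of the endothelial ones, and at most 1 or 2 of the other marker genes checked. Counts were summed per library and class, or per library and zone, and tested in edgeR 4.0.16 (R 4.3.3, quasi-likelihood, TMM scaling, low counts left out by filterByExpr, Benjamini-Hochberg adjustment), with the library as a block because sums of 1 library come from the same cell suspension. All classes shared 1 fit with 3 residual degrees of freedom, and all zones 1 fit with 2. DESeq2 1.42.0 was an alternative. The procedure was tested on simulated data.

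CPM are counts scaled to each sum's total. Folds against a class at 0 used a floor of 3 counts over both libraries of that class. Exact intervals and floors cover counting error only. Scrublet in scanpy 1.11.5 (Python 3.11.15) marked 626 barcodes of library 1 and, by its own threshold, 0 of library 2, where the 6% with the highest scores were marked instead (898). Marked barcodes were kept except in 1 alternative; 19 and 13 members were marked. Genes were named by rule as the 8 with the largest folds each way among called genes at 50 CPM or more between classes, or 100 between zones, plus the called members of each list with the highest and lowest fold; other list members were picked as examples after their values were seen. The members, lists and tests were chosen with earlier results of these data known.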

Additional observations from a re-analysis of the deposited data

How the results depend on the processing

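Depth and cell number limit the zone results, since the smallest zone held 16 cells and the stricter one 7, and so do RNA of other cell types and the choice of zone lists. With 2 libraries, 1 library can decide a value. A log2 minimum of 2 called 1305 genes against pericytes, 2129 against astrocytes, 1789 against microglia, 96 between arterial and capillary cells and 123 between arterial and venous cells. DESeq2's Wald test called 85 genes between arterial and capillary cells, 85 between arterial and venous cells and 1 between venous and capillary cells. Keeping genes with at least 1 UMI in 2 sums called 392, 404 and 43. Zones set by mean z-score called 110 between arterial and venous cells. Between venous and capillary cells the count was 0 without doublets, 10 with at least 6 rule UMIs, 16 without members holding RNA of other cell types, 16 with at least 3 zone UMIs, 19 with zones by mean z-score and 10 with the stricter zones; the setting without other RNA and the stricter zones were chosen after seeing the data. The cause of these shifts was not tested.

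Without the replicate block the counts were 2109 against pericytes, 3511 against astrocytes, 3027 against microglia, 195 between arterial and capillary cells, 3 between venous and capillary cells and 231 between arterial and venous cells. With 1 library left out no test was possible, and genes past 2-fold numbered 3475 to 4230 against pericytes, 4255 to 4494 against astrocytes, 4165 to 4737 against microglia, 777 to 978 between arterial and capillary cells, 324 to 344 between venous and capillary cells and 809 to 1053 between arterial and venous cells. The mean share of members was 1.79% among barcodes of at least 3000 UMIs, against 1.34%.

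Between arterial and capillary cells, Slc2a1 turned to -0.046 and Abcb1a to -0.084 on the log2 scale with at least 1 UMI in 2 sums, and with 1 library left out Slc2a1 lay between -0.072 and 0.35 and Abcb1a between -0.68 and 0.70. Between venous and capillary cells, Apoe turned to -0.40 without members holding RNA of other cell types and to -0.40 in stricter zones, and with zones by mean z-score Slc38a5 turned to 0.11 and Tmsb10 to -0.013. Of 1572 recomputed values of 161 pairs of a named gene and a comparison, 1406 kept their direction and side of the threshold.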
